A study of Mus musculus with 24 samples.

Results

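Pregnenolone 16α-carbonitrile (PCN) was compared with pravastatin in wild-type mouse liver, over the genes whose read counts are given for both compounds. The pravastatin table lists 929 genes, chosen by the authors on pravastatin against vehicle, and 902 of them could be joined by symbol and coordinates to the PCN table, which lists 19650 genes. Of these 902 genes, 900 had enough counts to be tested and 2 did not. The series holds 24 male mice in 6 groups of 4, and the 8 libraries compared here were set beside the 4 vehicle libraries that both tables share. Mice of all 3 groups were wild-type C57Bl/6N animals on chow, 19 to 20 weeks old, which were gavaged for 4 days and fasted for 12 h before the livers were taken. The PCN mice received 100 mg/kg, the pravastatin mice 10 mg/kg and the vehicle mice distilled water. The dose of PCN was 10 times that of pravastatin by weight, so compound and dose cannot be told apart in what follows. Each library came from a separate animal by its title, but the columns carry no animal number, so libraries are numbered here by column.

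PCN is a synthetic steroid that binds the pregnane X receptor (PXR), a nuclear receptor of liver and gut that turns on genes for drug oxidation, conjugation and transport. In rodents PCN is the standard PXR agonist, and it has also been described as an antiglucocorticoid. Pravastatin is a water-soluble statin, a drug that lowers cholesterol synthesis, and cells that make less cholesterol release the transcription factor SREBP2 to raise sterol synthesis and uptake. Liver genes also follow the circadian clock and the fast, both of which act partly through glucocorticoids.

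Total RNA libraries held 8159507 to 16331776 counts in listed genes with PCN and 6636945 to 24636139 with vehicle. Pravastatin libraries are known only in the selected genes, and in the joined ones they held 721991 to 813661 counts, against 290346 to 611182 with PCN and 244998 to 922110 with vehicle. The hepatocyte marker albumin (Alb) lay between 534327 and 598971 normalised read counts with PCN and between 585080 and 672462 with vehicle, and all 12 hepatocyte markers of the list are in the PCN table. Cyp3a11, the classical PXR target, lay between 53382 and 111505 with PCN, against 26851 to 45714 with vehicle, so that the groups did not overlap. Neither gene is in the pravastatin table. A normalised read count here is a count divided by its library's size factor, with both tables on the scale of the PCN table.

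The selection of the genes bears on every count below. In the authors' deposited table the largest p-value of pravastatin against vehicle among the listed genes was 0.06268, with 493 of the joined genes higher and 409 lower with pravastatin. The pravastatin level of a listed gene therefore lies away from its vehicle level by choice, and part of any gap between PCN and pravastatin may stem from that choice. By the authors' deposited adjusted p-values, only 22 of the 902 joined genes were under 0.05 for pravastatin against vehicle. Being listed is thus not a call of a pravastatin response. A second contrast, PCN against the midpoint of pravastatin and vehicle on the log scale, was fitted beside the direct one because it is orthogonal to the selecting difference when groups are of equal size. A gene that both compounds moved alike from vehicle can pass it without any difference between the compounds.

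PCN and pravastatin livers differed in 59 of the 900 genes (6.56%, edgeR quasi-likelihood test, Benjamini-Hochberg adjusted p of 0.05). Levels were higher with PCN in 30 genes (3.33%) and lower in 29 genes (3.22%). Among the genes that were higher the ratio of group means ran between 1.22 and 2.51 with a median of 1.54, and among those that were lower the fall was between 1.21-fold and 5.97-fold with a median of 1.60-fold. The 4 PCN and 4 pravastatin libraries did not overlap in 57 of the 59 genes; Depp1 and Acpp did overlap. Over all genes tested, 95 had no overlap (10.6%). At an unadjusted p of 0.05 there were 170 genes, and the median log2 ratio of PCN over pravastatin over the 900 genes was 0.01. In 743 genes the 95% interval of the log2 ratio lay within 1 unit of 0. Against the midpoint of pravastatin and vehicle 210 genes passed (23.3%), 129 of them higher with PCN (14.3%) and 81 lower (9.0%).

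The count of 59 depended on single libraries. It was 34 without PCN library 2, 33 without PCN library 4, 38 without pravastatin library 3 and 30 without pravastatin library 4. When the p-values were adjusted over the 12938 genes testable in the PCN table, with genes that have no pravastatin counts taken as not passed, 10 genes remained, 4 higher and 6 lower. These were Fzd8, Nmrk1, Tifa and Rarres1 on the higher side and Tsc22d3, Angptl4, Inhbb, Dtx4, Clpx and the gene model Gm43119 on the lower side.

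**Figure D1:**
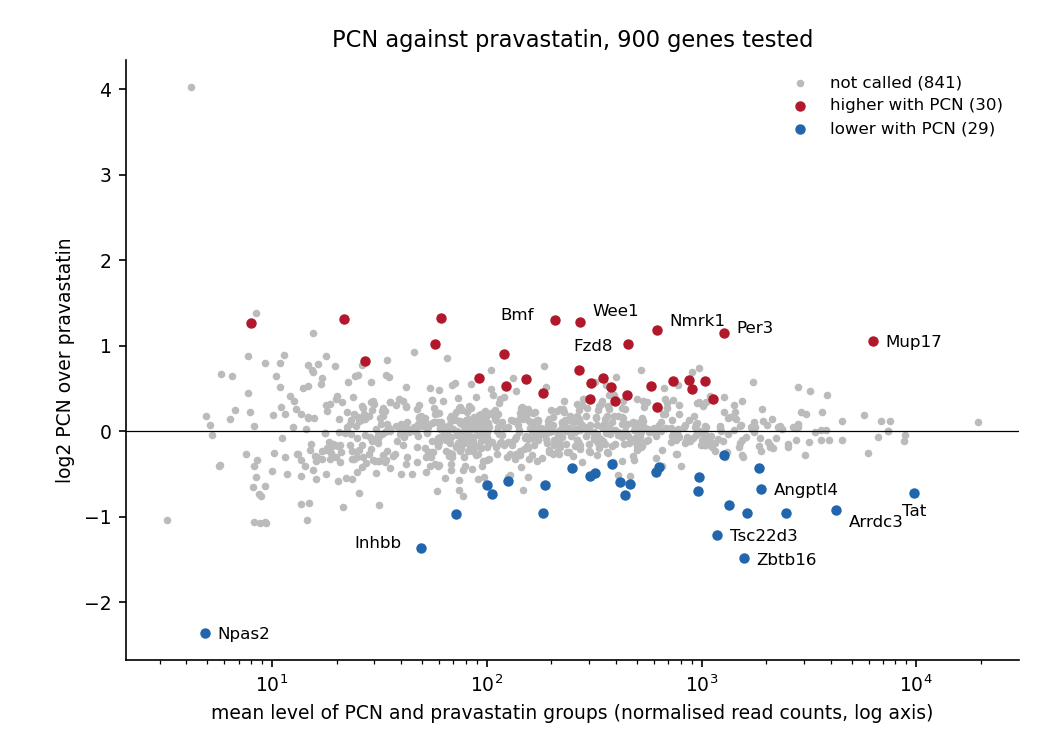
Log2 ratio of PCN over pravastatin (vertical axis) against the geometric mean of the 2 group levels in normalised read counts (horizontal log axis) for the 900 genes tested. Red points are the 30 genes higher and blue points the 29 genes lower with PCN at an adjusted p of 0.05; grey points are the other 841, among them Moxd1 at a log2 ratio of 4.03 on very few counts.

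Genes that glucocorticoids induce in liver were lower with PCN than with pravastatin in part. The list holds 25 such genes, of which 8 were tested, and 3 were lower (against 3.22% of all genes tested), none higher and 5 not called. The median log2 ratio of the 8 was −0.64, against 0.01 over all genes tested. Against the midpoint of pravastatin and vehicle 6 of the 8 were lower, where 9.0% of all genes tested were. A gap from vehicle can give such a call, and only 3 of the 8 were lower against pravastatin itself. The 3 called genes were Tsc22d3, Zbtb16 and Tat, and they remained called when any single library was left out. With the adjustment over all genes of the PCN table Tsc22d3 remained, while Zbtb16 (adjusted p = 0.208) and Tat (adjusted p = 0.123) did not.

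Tsc22d3 encodes GILZ, a leucine zipper protein that carries part of the anti-inflammatory action of glucocorticoids (GRCm38 chromosome X, 140539528 to 140600659). It had 754, 695, 810.4 and 850.5 normalised read counts in PCN livers, against 1529, 1437, 2428 and 1805 in pravastatin livers and 2418, 2999, 2058 and 2479.9 in vehicle livers. All 4 PCN libraries lay below all pravastatin libraries, and pravastatin library 3 fell within the vehicle range. The level with PCN was 2.31-fold lower than with pravastatin (log2 ratio −1.21, standard error 0.15, adjusted p = 0.000522).

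Zbtb16 encodes PLZF, a zinc finger repressor of transcription (GRCm38 chromosome 9, 48654297 to 48836222). Its levels were 1859, 505, 549 and 842 in PCN livers, 2797, 2767, 2008 and 3042 in pravastatin livers and 1259, 1552, 1236 and 2172 in vehicle livers. PCN library 1 stood far above the other 3 PCN libraries and near pravastatin library 3, yet the compounds did not overlap. The pravastatin mean was above the vehicle mean, and PCN was 2.83-fold lower than pravastatin (log2 ratio −1.49, standard error 0.33, adjusted p = 0.0145).

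Tat, the tyrosine aminotransferase that starts tyrosine breakdown, is a long-known glucocorticoid target of liver (GRCm38 chromosome 8, 109990437 to 109999803). It stood at 8678, 6602, 6884 and 8199 in PCN livers, 13079, 13509, 12258 and 11366 in pravastatin livers and 11726, 17584, 12751 and 19692 in vehicle livers. The PCN libraries were the lowest of the 12, while pravastatin and vehicle libraries overlapped. The fall with PCN was 1.65-fold against pravastatin (log2 ratio −0.73, standard error 0.15, adjusted p = 0.00857).

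The other 5 tested members of the list were not called. Sgk1, a kinase that raises sodium transport, averaged 199 ± 23.0 with PCN, 199 ± 38.0 with pravastatin and 273 ± 48.3 with vehicle (SD, n = 4 each), with a log2 ratio of 0.00 (95% interval −0.32 to 0.32). Arl4d, a small GTPase, averaged 124 ± 33.7 with PCN, 120.0 ± 26.0 with pravastatin and 292 ± 51.0 with vehicle, with a log2 ratio of 0.04 (95% interval −0.39 to 0.48). All PCN and all pravastatin libraries lay below all vehicle libraries at Arl4d. For Nfkbia, the inhibitor of NF-kB, the log2 ratio was −0.17 (95% interval −0.39 to 0.04). Intervals were wider for Ddit4, an inhibitor of mTORC1, at −1.26 to 0.16, and for the stress gene Gadd45b, at −2.02 to 0.32, so for both genes the interval includes a 2-fold difference.

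**Figure D2:**
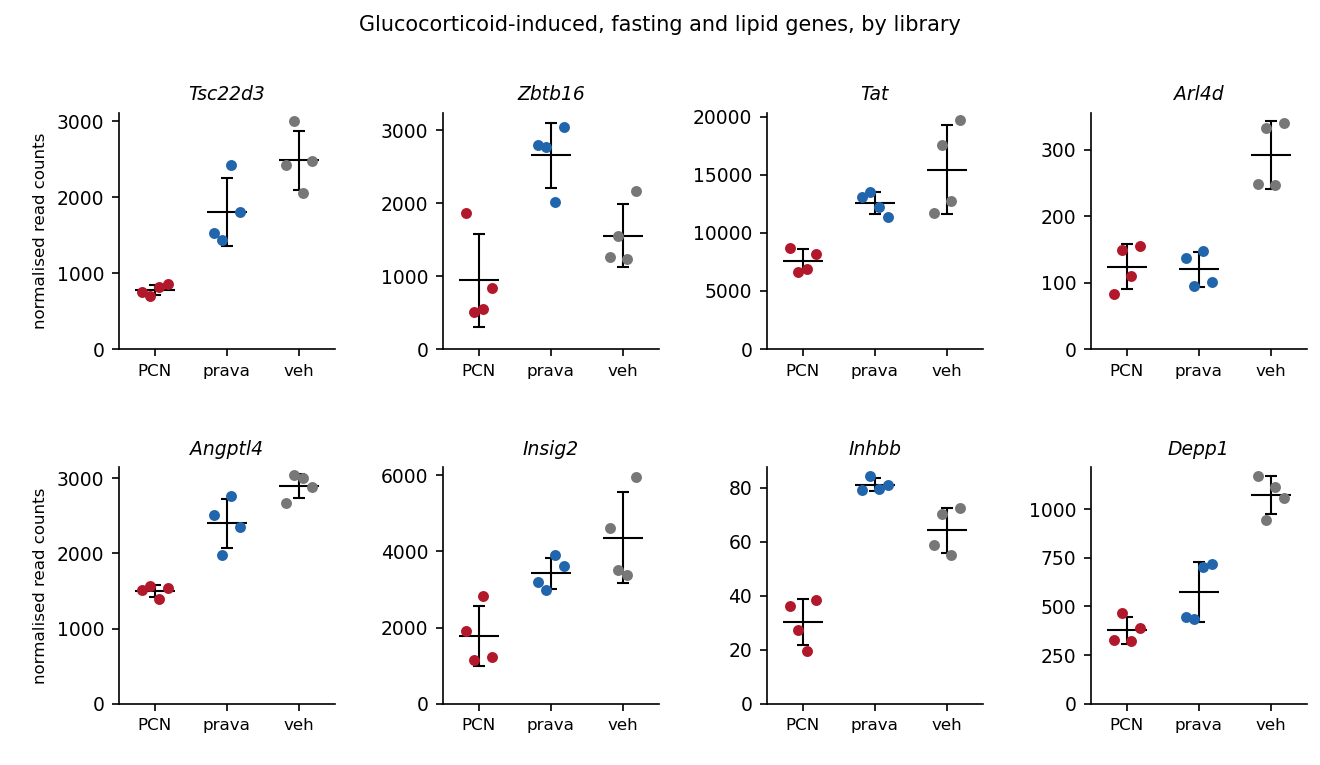
Normalised read counts (vertical axis, linear from 0) of 8 genes in each of the 4 PCN, 4 pravastatin and 4 vehicle libraries; points are libraries, horizontal bars group means and whiskers 1 SD. PCN and pravastatin points are apart for Tsc22d3, Zbtb16, Tat, Angptl4, Insig2 and Inhbb, overlap for Depp1, and lie together below vehicle for Arl4d.

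Angptl4, Depp1 and Insig2, which act in fasting and lipid handling, were lower with PCN. Of 28 genes for lipid uptake and droplets 3 were tested and Angptl4 was lower; of 29 fasting and insulin-sensitive genes 4 were tested and Depp1 was lower; of 31 genes of sterol synthesis and uptake 5 were tested and Insig2 was lower. No member of these lists was higher with PCN. Over all genes tested 3.22% were lower and 3.33% higher, and lists with so few tested members say little as sets. Angptl4 remained called in every alternative run. The call of Insig2 was lost without PCN library 1, 2 or 4 or pravastatin library 3 or 4 (adjusted p of 0.0531 to 0.0978). That of Depp1 was lost without PCN library 1, 3 or 4, pravastatin library 3 or 4 or vehicle library 4 (adjusted p of 0.0508 to 0.153), and neither passed in the adjustment over all genes of the PCN table.

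Angptl4, a secreted inhibitor of lipoprotein lipase that liver makes during fasting, had 1511, 1570.2, 1393 and 1540.5 normalised read counts in PCN livers, 2504, 1983, 2766 and 2354 in pravastatin livers and 2676, 3038, 3001 and 2879 in vehicle livers (GRCm38 chromosome 17, 33773750 to 33781830). The PCN libraries spanned a narrow range below every pravastatin library. The fold was 1.60 lower with PCN (log2 ratio −0.68, standard error 0.09, adjusted p = 0.000522). Angptl8, another lipase regulator, that feeding raises, was not called, at a log2 ratio of −0.51 (95% interval −1.10 to 0.08), and lipoprotein lipase itself (Lpl) stood at −0.13 (95% interval −0.57 to 0.31).

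Insig2 encodes a membrane protein of the endoplasmic reticulum that holds back the SREBP precursors when sterols are plentiful (GRCm38 chromosome 1, 121304353 to 121332589). It had 1909, 1147, 2832 and 1223 normalised read counts in PCN livers, 3204, 2982, 3898 and 3609.6 in pravastatin livers and 4607, 3511, 3388 and 5963 in vehicle livers. The highest PCN library, number 3, lay just under the lowest pravastatin library. The level was 1.93-fold lower with PCN (log2 ratio −0.95, standard error 0.25, adjusted p = 0.0305).

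The other 4 tested genes of sterol synthesis and uptake were not called. Squalene epoxidase (Sqle) had 347, 394, 329 and 670.4 in PCN livers, 366, 471, 541 and 551 in pravastatin livers and 409.9, 382, 304 and 344 in vehicle livers. The PCN range enclosed the pravastatin range. Its log2 ratio was −0.14 (95% interval −0.55 to 0.28), that of the isomerase Idi1 was −0.06 (−0.40 to 0.27) and that of the mevalonate decarboxylase Mvd was −0.22 (−0.82 to 0.37). PCN library 4 had the highest level of the 4 PCN libraries at Sqle, Idi1 and Mvd.

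Depp1, a FOXO target induced by fasting, had 327, 467, 322 and 390.2 in PCN livers, 448, 434, 700.4 and 718 in pravastatin livers and 1172, 944, 1114 and 1056 in vehicle livers. PCN library 2 exceeded pravastatin libraries 1 and 2, so the groups overlapped, and all 8 libraries lay below vehicle. PCN was 1.53-fold lower than pravastatin (log2 ratio −0.61, standard error 0.17, adjusted p = 0.0419). Of the other fasting genes, the activin subunit gene Inhbe stood at a log2 ratio of −0.27 (95% interval −0.66 to 0.12) and the pseudokinase gene Trib1 at −0.12 (−0.41 to 0.16). The other activin subunit gene on hand, Inhbb, had 36.3, 27.2, 19.7 and 38.4 in PCN livers, 79.1, 84.4, 79.8 and 81.3 in pravastatin livers and 59.0, 70.3, 55.3 and 72.5 in vehicle livers. Its pravastatin libraries were nearly equal, and every PCN library was below every library of the other 2 groups, 2.67-fold lower by means than pravastatin (log2 ratio −1.36, standard error 0.19, adjusted p = 0.000522).

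None of the 4 tested apolipoprotein and lipoprotein assembly genes was called: the log2 ratios of Apoa4, Apoa5, Abca1 and Abcg1 lay between 0.07 and 0.19. The only xenobiotic target of PXR and its relative CAR that could be tested, of 55 listed, was Cyp2c37, a drug oxidase whose reads can be shared with near-identical Cyp2c genes. It averaged 3502 ± 674 with PCN, 3738 ± 439.8 with pravastatin and 4965 ± 834 with vehicle, and its log2 ratio of −0.09 did not pass (95% interval −0.40 to 0.21). The classical targets of PCN thus lie outside the genes compared here, since the pravastatin table does not list them. Of 37 genes of fatty acid oxidation and ketogenesis only the mitochondrial carrier gene Ucp2 was tested, at −0.09 (95% interval −0.32 to 0.14).

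Clock genes were among those higher with PCN. The circadian clock of liver cells is a loop in which BMAL1 with CLOCK or NPAS2 drives the Per and Cry repressors, which then shut the drivers off, while output factors such as DBP and TEF pass the rhythm on. Of 36 clock genes in 3 lists 12 were tested; 4 were higher (Per3, Cry2, Wee1 and Nmrk1), 1 was lower (Npas2) and 7 were not called, where 3.33% of all genes tested were higher and 3.22% lower. The median log2 ratio of the 12 was 0.46, against 0.01 over all genes tested. Against the midpoint of pravastatin and vehicle 8 were higher and 1 lower, where 14.3% of all genes tested were higher and 9.0% lower. Here too a gap from vehicle can give such a call, and only 4 were higher against pravastatin itself. The 4 higher calls were reduced to 1, Nmrk1, without PCN library 2, PCN library 4, pravastatin library 3 or pravastatin library 4, and in the adjustment over all genes of the PCN table. Nmrk1 is also listed under NAD synthesis, and Per3, Cry2 and Wee1 lost their calls in each of these runs. Cry2 also missed the threshold without PCN library 3.

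Per3, a period family repressor, had 1326, 2045, 1747 and 2466 normalised read counts in PCN livers, 1139, 1149.8, 565 and 566 in pravastatin livers and 299.5, 541, 379 and 644 in vehicle livers (GRCm38 chromosome 4, 151003652 to 151044665). Pravastatin libraries 1 and 2 stood at about the same level, well above pravastatin libraries 3 and 4, and PCN libraries lay above them all. PCN was 2.22-fold higher than pravastatin (log2 ratio 1.15, standard error 0.27, adjusted p = 0.0208).

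Of the other repressors, Cry2, a cryptochrome, was the 1 called and had 976, 1038, 1064 and 1209.8 in PCN livers, 866, 877, 632 and 669 in pravastatin livers and 516, 634, 527 and 701 in vehicle livers. It was 1.41-fold higher with PCN and without overlap between the compounds (log2 ratio 0.50, standard error 0.12, adjusted p = 0.0253). Per2 averaged 938 ± 169 with PCN, 646 ± 136 with pravastatin and 476 ± 110.4 with vehicle (SD, n = 4 each). It missed the threshold (log2 ratio 0.54, 95% interval 0.17 to 0.91, adjusted p = 0.0857), and PCN library 1 lay below pravastatin libraries 1 and 2. Bhlhe40, the repressor DEC1, stood at a log2 ratio of 0.02 (−0.44 to 0.49) and Csnk1e, a kinase of PER proteins, at −0.15 (−0.53 to 0.22).

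On the activating side, Npas2, the partner of BMAL1, had 4.95, 0, 1.52 and 1.51 normalised read counts in PCN livers, 9.34, 11.4, 9.75 and 17.1 in pravastatin livers and 24.1, 19.8, 14.7 and 20.2 in vehicle livers (GRCm38 chromosome 1, 39193731 to 39363236). These are low counts, and 1 PCN library had none. Even so, every PCN library was below every pravastatin library, 5.97-fold by means (log2 ratio −2.35, standard error 0.50, adjusted p = 0.0114). Without PCN library 1 the log2 ratio was −3.33, and the call was lost without PCN library 4 (adjusted p = 0.0513), in the fit by trend and prior only (adjusted p = 0.0526) and in the adjustment over all genes of the PCN table (adjusted p = 0.163). The BMAL1 gene Arntl is not in the pravastatin table; it averaged 36.8 with PCN and 136 with vehicle.

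Among the outputs, Wee1, a kinase that delays mitosis, had 264, 467, 459.9 and 502 in PCN livers, 213, 221, 143 and 119 in pravastatin livers and 67.8, 176, 55.3 and 76.9 in vehicle livers. It was 2.43-fold higher with PCN, with PCN library 1 the lowest of its group and still above pravastatin (log2 ratio 1.28, standard error 0.30, adjusted p = 0.0188). Nmrk1, which phosphorylates nicotinamide riboside toward NAD, had 775, 955, 912 and 1109.6 in PCN livers, 494, 532, 311 and 317 in pravastatin livers and 270.0, 290.1, 249 and 299.5 in vehicle livers. It was 2.27-fold higher with PCN (log2 ratio 1.18, standard error 0.16, adjusted p = 0.000522), and it remained called whichever single library was left out and in the adjustment over all genes.

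The remaining outputs were not called. Usp2, a deubiquitinase, had 1139, 1280.1, 1115 and 1501 in PCN livers, 1022, 1003, 451 and 542 in pravastatin livers and 228, 687, 197 and 427 in vehicle livers. All 4 PCN libraries were above all pravastatin libraries, but the pravastatin libraries spread widely (log2 ratio 0.74, 95% interval 0.05 to 1.43, adjusted p = 0.212). Tef stood at 0.43 (0.14 to 0.72, adjusted p = 0.0843), the kinase gene Pim1 at 0.28 (−0.05 to 0.60) and Noct, a deadenylase-like phosphatase, at 0.02 (−0.47 to 0.51).

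Pravastatin libraries 1 and 2 were above pravastatin libraries 3 and 4 at Per3, Per2, Cry2, Wee1, Usp2, Tef and Nmrk1. They were below pravastatin libraries 3 and 4 at Tsc22d3, Depp1 and Clpx. Of the other called glucocorticoid-induced genes, Tat had them above and Zbtb16 did not split so. At Per3, Wee1, Usp2, Nmrk1, Depp1 and Clpx neither PCN nor vehicle libraries split into these pairs. PCN libraries 1 and 2 lay below PCN libraries 3 and 4 at Cry2 and Tsc22d3. The labels give animal numbers in a lower and a higher range within each wild-type group, which the columns do not carry, and no hour of collection is given in the sources used here. The part of collection order or hour in the clock and glucocorticoid differences was not tested.

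**Figure D3:**
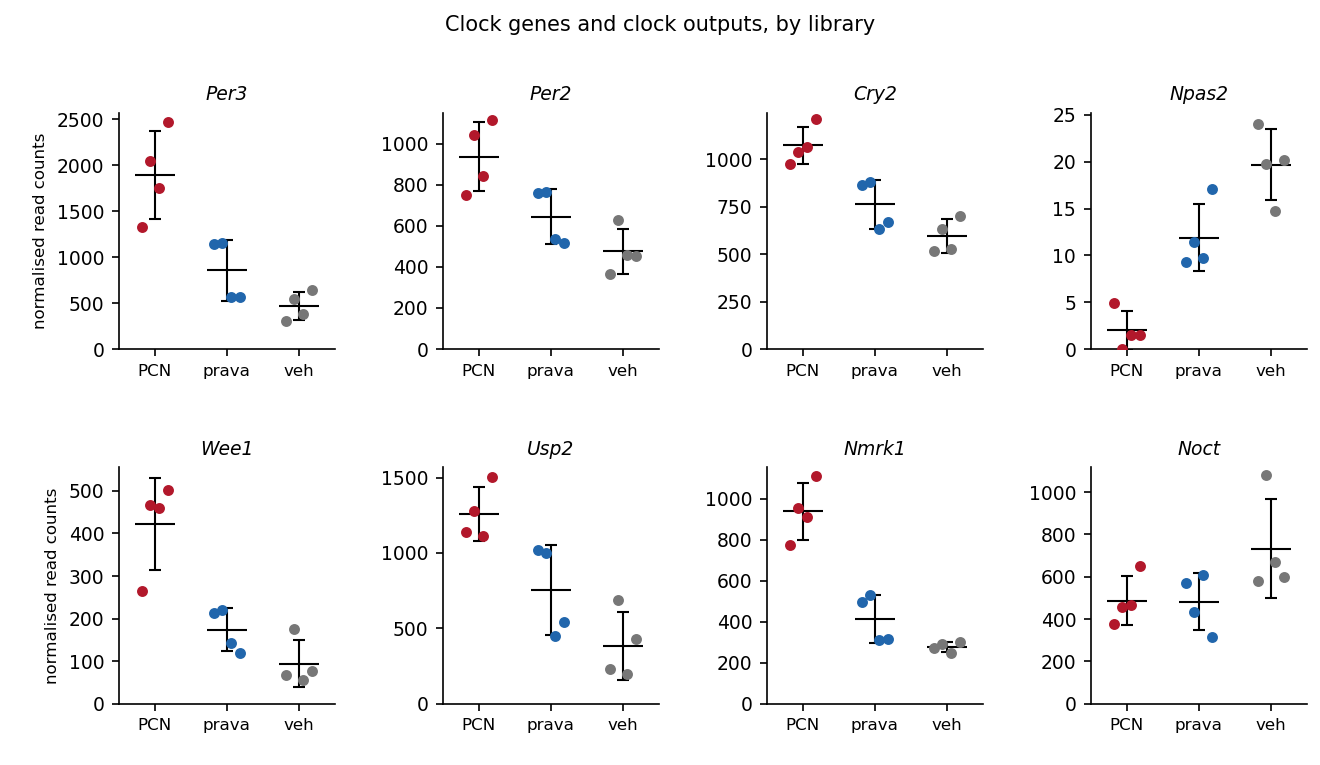
Normalised read counts (vertical axis, linear from 0) of 8 clock genes and outputs in each of the 4 PCN, 4 pravastatin and 4 vehicle libraries, with points for libraries, bars for means and whiskers for 1 SD. Pravastatin points split into a higher and a lower pair for Per3, Per2, Cry2, Usp2 and Nmrk1, and Npas2 runs the opposite way to Per3.

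The promoters of the called genes were searched for the letters that clock factors bind, in the 250 bases before each start that RefSeq gives on build GRCm38.p6. Of the called genes 23 of 30 higher and 22 of 29 lower ones had a promoter in the table, with 32 windows on each side since some genes have several starts. A called gene was counted if any of its windows held a match, whereas the shares over all promoters are of single windows. The 2 are therefore not on the same footing. The D-box, the site of DBP, TEF and HLF (TTATGTAA or TTACGTAA, read on both strands), was found in 2 of the higher genes, Per3 and Homer2, in none of the lower ones, and in 0.931% of all 32851 promoters. The E-box CACGTG, bound by BMAL1 with CLOCK or NPAS2 and by other factors, was found in the higher gene Susd1 and in the lower genes Klf11, Lasp1 and 4732465J04Rik, against 6.02% of all promoters. Neither the D-box nor the E-box was found in the windows of Cry2, Nmrk1 or Npas2. The half-site AGAACA, read on both strands, of the glucocorticoid receptor was found in 0 higher and 3 of the 22 lower genes, against 16.1% of all promoters. These were Tsc22d3, Insig2 and Ip6k2, each in only 1 of its windows, and the window of Tat held none. The full palindrome, AGAACA and TGTTCT 3 bases apart, was found in no called gene, against 0.00913% of all promoters.

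The promoters of Per3 and Homer2 are shown because they are the 2 among the called genes that hold a D-box, which is in capitals; both genes are on the minus strand and are written in their own direction. Homer2, a scaffold protein of the postsynapse that also binds NFAT, has a second start whose window holds no D-box.
Per3 (chr4:151044666-151044915): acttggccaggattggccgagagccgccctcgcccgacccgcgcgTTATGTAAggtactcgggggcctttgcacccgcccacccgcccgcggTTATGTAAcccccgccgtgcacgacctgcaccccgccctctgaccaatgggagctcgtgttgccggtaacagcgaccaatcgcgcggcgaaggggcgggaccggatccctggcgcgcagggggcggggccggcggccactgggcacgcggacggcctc
Homer2 (chr7:81706926-81707175): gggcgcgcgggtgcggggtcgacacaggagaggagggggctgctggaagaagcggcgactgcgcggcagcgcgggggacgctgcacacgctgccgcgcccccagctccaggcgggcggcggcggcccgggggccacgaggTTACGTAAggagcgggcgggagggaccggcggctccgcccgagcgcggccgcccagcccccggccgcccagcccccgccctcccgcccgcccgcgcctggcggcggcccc

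Per3 holds the letters at positions −205 and −158 and Homer2 at −110, counted from the start to the first base of the match. Homer2 levels were 776, 921, 785 and 1119 in PCN livers, 653, 706, 523 and 509.8 in pravastatin livers and 408, 513, 407 and 611 in vehicle livers. The 4 PCN libraries were all above the pravastatin libraries, 1.51-fold by means (log2 ratio 0.59, standard error 0.15, adjusted p = 0.0281); the call was lost without PCN library 2 or 4 or pravastatin library 3 or 4. A match is only a description of the letters in these windows.

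Genes on which the compounds lay on either side of vehicle included Mup17, Tifa and Arrdc3. Mup17 encodes a major urinary protein, a pheromone carrier that male liver secretes (GRCm38 chromosome 4, 61591929 to 61595871). It had 9314, 8509.9, 6859.9 and 11536 normalised read counts in PCN livers, 3141, 4427, 4411 and 5374 in pravastatin livers and 8603, 5645, 5981 and 9938 in vehicle livers. All pravastatin libraries were below all PCN and all vehicle libraries, while PCN and vehicle overlapped, and PCN was 2.09-fold above pravastatin (log2 ratio 1.06, standard error 0.20, adjusted p = 0.00488).

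Reads of Mup genes can be split among near-identical copies, so single members are uncertain. Of 39 male-biased genes 8 were tested, and 7 were not called. Mup17 alone was higher, where 3.33% of all genes tested were. The log2 ratios of the other Mup genes were 0.58 for Mup9 (95% interval 0.11 to 1.05), 0.58 for Mup16 (0.08 to 1.07), 0.47 for Mup11 (−0.15 to 1.09) and 0.42 for Mup19 (−0.03 to 0.88). Their pravastatin means were the lowest of the 3 groups, as with Mup9 at 2135 ± 280.4 with PCN, 1427 ± 397 with pravastatin and 2494 ± 904 with vehicle (SD, n = 4 each). Gstp1, a glutathione transferase, stood at 0.13 (−0.29 to 0.54) and Ugt2b38, a glucuronosyltransferase, at −0.14 (−0.98 to 0.71). Moxd1 had 4.12, 0, 12.1 and 50.5 in PCN livers, 1.10, 3.17, 0 and 0 in pravastatin livers and 23.0, 0.495, 33.2 and 111 in vehicle livers, and its spread between animals left the log2 ratio with an interval of 0.88 to 7.17.

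Tifa, an adaptor that carries signals from bacterial sugar to NF-kB, had 193, 149.8, 129 and 183 in PCN livers, 99.4, 93.3, 81.0 and 78.4 in pravastatin livers and 127, 133, 112 and 155 in vehicle livers. The pravastatin libraries were the lowest of the 12, and PCN was 1.86-fold above them (log2 ratio 0.91, standard error 0.15, adjusted p = 0.00185). Irf7, the interferon regulatory factor that amplifies type I interferon, had 435, 394, 320.2 and 343 in PCN livers, 299, 233, 252 and 229 in pravastatin livers and 431, 351, 438 and 246 in vehicle livers. It was 1.47-fold higher with PCN than with pravastatin (log2 ratio 0.56, standard error 0.16, adjusted p = 0.0482), with PCN inside the vehicle range. This call was lost without any of PCN libraries 1, 2 and 4, pravastatin libraries 2, 3 and 4 and vehicle library 2 (adjusted p of 0.0613 to 0.153). The other interferon gene tested of 32 listed, Usp18, stood at 0.25 (−0.29 to 0.80).

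Arrdc3, an arrestin-like protein that sends receptors to degradation, had 3175, 3482, 3082 and 2557 in PCN livers, 3758, 6055, 6246 and 7192 in pravastatin livers and 4687, 3423, 5003 and 4976 in vehicle livers. It was 1.89-fold lower with PCN than with pravastatin (log2 ratio −0.92, standard error 0.17, adjusted p = 0.00475). The ubiquitin ligase gene Rnf152 had 866, 1286, 1159.5 and 1010.2 in PCN livers, 782, 690.1, 718 and 641 in pravastatin livers and 903, 835, 728 and 807 in vehicle livers, and was 1.53-fold higher with PCN (log2 ratio 0.61, standard error 0.11, adjusted p = 0.00473). The mitochondrial carrier gene Slc25a34 was 1.55-fold lower with PCN, at 149 ± 27.6 with PCN, 231 ± 13.1 with pravastatin and 187 ± 25.7 with vehicle (SD, n = 4 each). Dennd2d, which encodes an activator of Rab GTPases, was 1.54-fold higher, at 189 ± 26.7 with PCN, 122 ± 25.1 with pravastatin and 156 ± 19.8 with vehicle; its call was lost without PCN library 2, 3 or 4 or pravastatin library 2 or 4 (adjusted p of 0.0513 to 0.0832). A gene whose pravastatin level was chosen to lie away from vehicle can fall on the far side of vehicle from PCN by that choice alone, and the part of the choice in these genes was not tested.

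**Figure D4:**
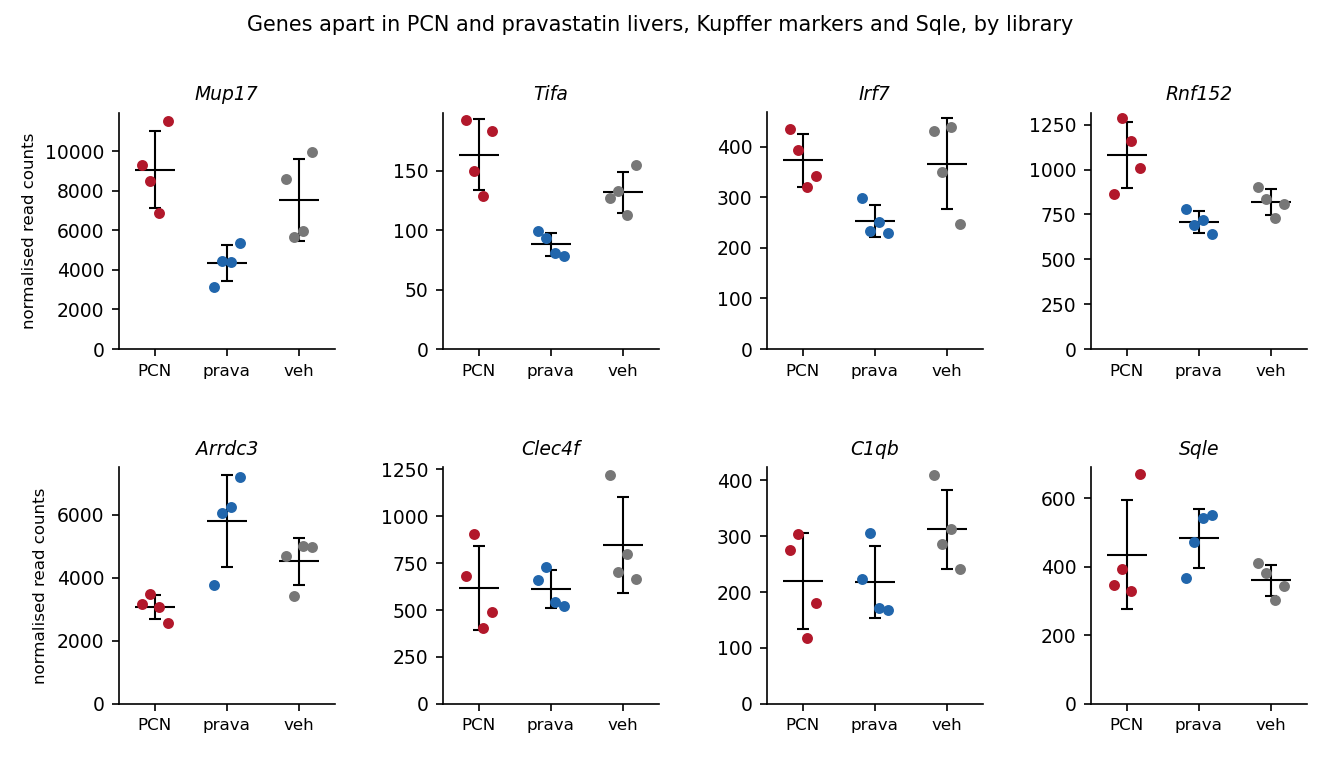
Normalised read counts (vertical axis, linear from 0) of 8 genes in each of the 4 PCN, 4 pravastatin and 4 vehicle libraries, with points for libraries, bars for means and whiskers for 1 SD. Pravastatin is the lowest group for Mup17, Tifa, Irf7 and Rnf152 and the highest for Arrdc3, while PCN and pravastatin overlap for the Kupffer cell genes Clec4f and C1qb and for Sqle.

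Further calls included signalling and growth genes. Fzd8, a frizzled receptor for Wnt proteins, had 573, 806, 669 and 545 in PCN livers, 306, 375, 336 and 259.7 in pravastatin livers and 281, 293, 210.0 and 264 in vehicle livers. PCN libraries were 2.03-fold above pravastatin by means and did not overlap either group (log2 ratio 1.02, standard error 0.14, adjusted p = 0.000522). Its relative Fzd7 averaged 521 ± 60.7 with PCN, 387 ± 17.8 with pravastatin and 324 ± 40.4 with vehicle, 1.35-fold higher with PCN (log2 ratio 0.43, standard error 0.10, adjusted p = 0.0188); its call was lost without PCN library 1 or pravastatin library 4.

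Bmf, a BH3-only protein that promotes cell death, had 306, 531, 199 and 270.4 in PCN livers, 129, 197, 91.4 and 111 in pravastatin livers and 90.7, 104, 62.6 and 61.3 in vehicle livers. The lowest PCN library, number 3, was just above the highest pravastatin library, and the mean was 2.47-fold higher (log2 ratio 1.30, standard error 0.28, adjusted p = 0.0117). In the other direction, Trp53inp1, a p53 target that takes part in autophagy, had 1266, 969.6, 1427 and 1024 in PCN livers, 1905, 1669, 3207 and 2302 in pravastatin livers and 3449, 3117, 3627 and 2814 in vehicle livers. It was 1.94-fold lower with PCN (log2 ratio −0.96, standard error 0.18, adjusted p = 0.00473). Btg1, which slows proliferation, was 1.39-fold lower, at 520.1 ± 39.7 with PCN, 724 ± 110.4 with pravastatin and 887 ± 134 with vehicle (SD, n = 4 each). The Btg1 call was lost without PCN library 2, 3 or 4 or pravastatin library 3 or 4 (adjusted p of 0.0513 to 0.0860).

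Clpx, the unfoldase of a mitochondrial protease that also activates heme synthesis, had 1092, 896, 1087 and 896 in PCN livers, 1607, 1462, 2051 and 2086 in pravastatin livers and 2799.7, 1865, 2455 and 2399 in vehicle livers. The level with PCN was 1.81-fold below pravastatin (log2 ratio −0.86, standard error 0.14, adjusted p = 0.00185). Dtx4, a ubiquitin ligase of the Deltex family, had 169, 117, 118 and 118 in PCN livers, 242, 211, 292 and 275 in pravastatin livers and 397, 301, 372 and 345 in vehicle livers. PCN libraries 2, 3 and 4 were nearly equal and PCN library 1 was higher, yet all 4 lay below pravastatin, 1.95-fold by means (log2 ratio −0.95, standard error 0.14, adjusted p = 0.00119).

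Differences without overlap were also called at several further genes. With PCN, Syne3, a nuclear envelope linker, was 1.54-fold higher and Slc5a6, the carrier of biotin and pantothenate, 1.66-fold higher. Cpeb1, which binds messenger RNAs, was 1.55-fold higher. The inositol phosphate kinase gene Ip6k2 was 1.67-fold lower and the actin regulator gene Eps8l2 1.62-fold lower. Of these 5, Slc5a6 lost its call without PCN library 2, 3 or 4 or pravastatin library 3 or 4, and Cpeb1 without PCN library 1 or 2. Of 48 cytokine feedback and immediate early genes 15 were tested and none was called, with log2 ratios between −0.85 and 0.83 and a smallest adjusted p of 0.0870 by edgeR's quasi-likelihood test; against the midpoint of pravastatin and vehicle 3 were higher and 1 lower, shares near those of all genes tested (14.3% and 9.0%). The spread was wide at Socs3, the feedback inhibitor of STAT3, with 356, 195, 97.1 and 70.1 in PCN livers, 134, 219.7, 109 and 203 in pravastatin livers and 86.4, 61.9, 93.9 and 85.2 in vehicle livers. Nuak2, a stress kinase, had close means under both compounds, at 280.3 ± 60.5 with PCN, 264 ± 9.09 with pravastatin and 149 ± 19.6 with vehicle (log2 ratio 0.10, 95% interval −0.19 to 0.39).

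No marker of Kupffer cells, the resident macrophages of liver, was called. Of 18 markers 9 were tested, with log2 ratios of at most 0.14 and intervals that reach from −0.67 to 0.81. Their summed level ran between 1606 and 3671 with PCN (median 2535), between 1939 and 3172 with pravastatin (median 2388) and between 2735 and 4885 with vehicle (median 3270). These 9 were listed for a gap between pravastatin and vehicle, so the higher vehicle sums follow in part from that choice. Over the 17 markers of the PCN table the sums overlapped, at 6631 to 8803 with PCN and 7443 to 10217 with vehicle. Clec4f, a lectin found on Kupffer cells, had 680.2, 906, 402 and 488 in PCN livers, 661, 729, 541 and 519 in pravastatin livers and 1220.0, 704, 799 and 666 in vehicle livers. In bulk liver RNA, fewer cells of a type and less RNA per cell cannot be told apart. Single markers were tested for endothelial cells (Lyve1, log2 ratio −0.17), stellate cells (Lrat, 0.35), neutrophils and monocytes (Lyz2, −0.17) and lymphocytes (Igkc, 0.53), and none was called. Of the 2 hepatocyte markers tested, Tat was lower with PCN and transferrin (Trf) was not called, at −0.23 (95% interval −0.44 to −0.02). No marker of bile duct, red blood, pancreas and gut or adipose cells is among the genes compared.

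**Figure D5:**
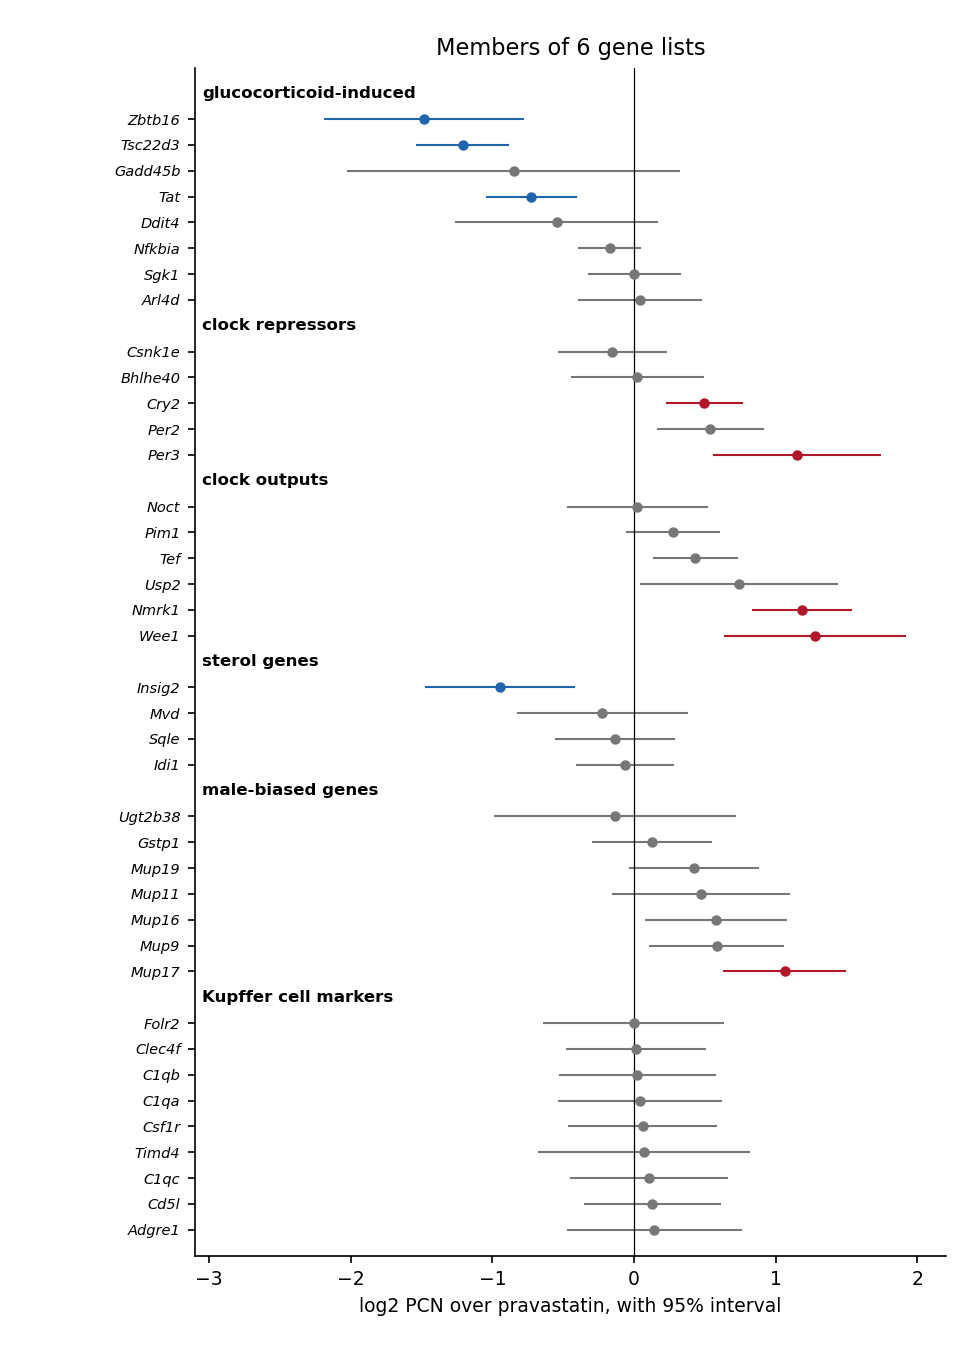
Log2 ratio of PCN over pravastatin (horizontal axis) with its 95% interval for tested members of 6 lists, 1 row per gene, red where higher, blue where lower and grey where not called at an adjusted p of 0.05; Moxd1 of the male-biased list is left out because its interval leaves the axis. Calls lie below 0 for 3 glucocorticoid-induced genes and Insig2, above 0 for Per3, Cry2, Nmrk1, Wee1 and Mup17, and the 9 Kupffer cell markers lie around 0.

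In all, 30 of the 43 lists had a tested member and 13 had none, among them fatty acid synthesis, endoplasmic reticulum chaperones, heat shock proteins and ribosomal proteins. Of the 929 genes listed for pravastatin, 27 are not listed in the PCN table and had no PCN counts to compare; the largest p-value listed there is 0.8925 in the authors' deposited values. Mup13, another urinary protein gene among the 27, averaged 649.9 ± 123 with pravastatin and 952 ± 158 with vehicle (SD, n = 4 each), and the receptor gene Notch1 averaged 1004 ± 43.2 with pravastatin and 849 ± 46.0 with vehicle.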

How the data were processed

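Liver total RNA libraries of 4 PCN, 4 pravastatin and 4 vehicle mice were used from 2 deposited tables of a workbook of 15. The deposited values are unscaled counts of reads for each gene, by the file headers and their whole numbers, with the authors' mean signal (baseMean), log2 fold change and p-value beside them. Per the submitters' processing notes the authors used HTSeq, DESeq2 and build GRCm38; the aligner and all versions were not given in the sources used here. Both tables keep genes by adjusted p. Starts count from 0 in the files and were raised by 1. Identifiers match symbols in 0.0102% of lines of the PCN table and were not used.

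Size factors were recovered from the baseMean and the counts, and the tables were joined through the vehicle counts, which were the same in all 902 joined genes; the ratio of vehicle size factors varied by at most 0.207%. Levels of PCN and pravastatin are thus set across separately normalised tables. edgeR 4.0.16 (quasi-likelihood F test, R 4.3.3, limma 3.58.1) was fitted to the 12 libraries after filterByExpr, with the dispersion trend and the prior (5.82 degrees of freedom) from the whole PCN table, and p-values were adjusted by Benjamini-Hochberg over 900 genes at 0.05. The spread is that between animals. Alternatives were TMM, DESeq2 1.42.0, other filters, other estimates of the spread, a join by symbol, the 2 compounds alone, adjustment over all genes and each library left out.

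Named genes were called genes averaging 50 or more normalised counts with libraries that did not overlap (the 12 largest rises and 12 largest falls), up to 3 called members per list, all tested members of the main lists, and up to 8 genes on either side of vehicle; most appear in the text and a few are not reported here. Fzd7, Homer2, Nuak2, Socs3, Acpp, Mup13, Notch1 and the genes with an E-box were chosen after their values were seen. The genes compared, the lists and the rule were chosen with earlier results of these data known. Tables and plots were made in Python 3.11.15 (pandas 2.3.3, scipy 1.17.1, matplotlib 3.10.9).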

Additional observations from a re-analysis of the deposited data

Results flagged for a closer look

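In 6 of 124 groups of 4 libraries looked at, 1 library stood apart from the other 3 by Dixon's gap test at the 95% level, which chance alone gives in about 1 of 20 groups. Csnk1e was at 62.2 normalised read counts in PCN library 3. Idi1 was at 456 in PCN library 4. Dtx4 was at 169 in PCN library 1. Igkc was at 32.7 in PCN library 2. Cd5l was at 359 in pravastatin library 4. Timd4 was at 65.4 in pravastatin library 2.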

How the results depend on the processing

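The 59 calls between PCN and pravastatin (30 higher, 29 lower) became 10 (4 higher, 6 lower) when adjusted over the 12938 genes of the PCN table. Of the clock lists only the output Nmrk1, which is also listed under NAD synthesis, stayed higher, while Per3, Cry2 and Wee1 did not. Tsc22d3 was the 1 glucocorticoid-induced gene that stayed lower. Fewer calls follow from the larger number of genes adjusted over. With 1 library left out there were 30 to 64 calls, 12 to 33 of them higher and 18 to 33 lower, with 1 to 5 clock genes higher and 3 glucocorticoid-induced genes lower each time. Other settings gave 44 calls (spread from the listed genes) to 69 (TMM); DESeq2 gave 63. Calls against the midpoint numbered 161 to 219 over the alternatives run for it, which leave out the adjustment over all genes and the fit of the 2 compounds alone. No named call changed direction in any alternative, and 19 of the 30 named calls were kept in each alternative but the adjustment over all genes. No paired analysis was possible because the columns carry no animal numbers. The pravastatin libraries are known in selected genes only, which limits the dispersion and the depth that can be checked for them.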
